A study of Mus musculus with 12 samples.

Results

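Newly made RNA and the whole RNA pool of the same macrophages were compared after 45 min of lipopolysaccharide (LPS), a bacterial cell wall component sensed through Toll-like receptor 4. The comparison rests on 4 of the 12 arrays of the series, a nascent and a total RNA array from each of 2 independent experiments, chosen by their labels and not by any measured value. The macrophages were grown from marrow of C3H/HeN mice for 17 days, per the labels' protocols: non-adherent marrow cells were expanded with interleukin 3, interleukin 6 and stem cell factor, with medium conditioned by L cells as the source of macrophage colony stimulating factor, and only adherent cells were kept at the end. The 4 arrays come from cells given 100 ng/ml LPS from Escherichia coli for 45 min, with 200 µM 4-thiouridine, a uridine analogue, in the medium for the last 35 min. RNA that had taken up the analogue was biotinylated, bound to streptavidin and eluted, and is called nascent RNA here. Total RNA is the RNA before that purification, so both fractions carry the analogue and the nascent fraction is a subset of the total one. The unstimulated cells and those given LPS for 270 min, used only as reference times, received the same pulse. Amplification started from 200 ng in the case of total RNA and from 100 ng in the case of nascent RNA, so the RNA fraction, its purification and its input amount cannot be told apart.

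A short pulse of a labelled uridine marks RNA by age. A transcript that is made and destroyed fast is a large part of the new RNA and a small part of the pool, whereas a long-lived transcript accumulates in the pool and is scarce in the new fraction. The ratio of nascent to total RNA therefore depends on both synthesis and decay, and in cells whose transcription has just changed it is not a measure of stability alone. In macrophages given LPS, the first wave of transcription is known to include immediate early transcription factors, inhibitors of NF-kappaB, cytokines and chemokines, many of whose messages carry AU-rich decay elements. Small nucleolar RNAs and many microRNAs are cut out of longer, short-lived precursors, often introns. Random priming was used to make the probes for these arrays, so a precursor can give signal on the probe set of the short RNA within it, and precursor and mature RNA cannot be told apart here.

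Values are log2 intensities, differences are nascent minus total RNA within an experiment, and errors are limma's standard errors (SE) from a fit of the 6 such differences of the series, n = 2 experiments per time. A gene was called at a Benjamini-Hochberg adjusted p below 0.05 over 19938 genes. Of these, 2226 (11.2%) were higher in nascent RNA at 45 min and 2834 (14.2%) were lower, 584 (2.93%) and 1573 (7.89%) of them by at least 2-fold. Changing to arrays centred on their medians gave 1544 higher and 3010 lower, and leaving out an experiment at 45 min left 741 and 1547 without experiment 1 and 860 and 1345 without experiment 2. The median gene lay 0.15 above zero (0.04 with quantile scaling, 0.06 with centring), and list medians are to be read against it. The range between quartiles of the genes was 2.50 and 2.24 log2 units on the nascent arrays and 2.84 and 3.02 on the total arrays. A level was taken as background up to the 95th percentile of 1027 olfactory receptor genes, which was 6.48 and 6.76 on the nascent and 6.19 and 6.18 on the total arrays, and where both arrays of the dimmer fraction lay under it a fold is given as "at least". Where only 1 of them did, the difference is given as computed and rests in part on a value at the floor. The olfactory receptor genes themselves had a median of 0.25, with 84 of 1027 higher and none lower in this fit. Of the 12284 genes above background in at least 1 fraction, 14.2% were higher and 22.8% lower. Counts of the lists below are to be read against these shares. The 2 arrays of a fraction correlated across genes at r = 0.9883 for nascent and 0.9836 for total RNA. Most genes below are named for the size of their called difference, so fractions that do not overlap follow largely from that choice. Such statements describe the values and are no further support, and the share of all genes without overlap was not counted.

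**Figure D1:**
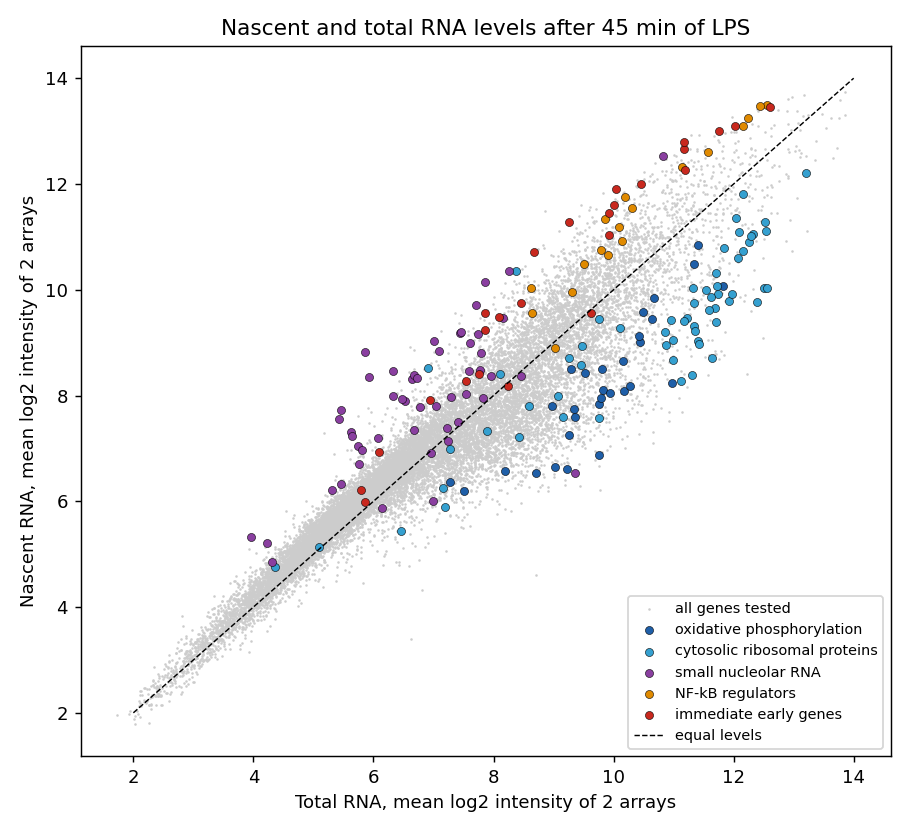
Mean log2 intensity of total RNA (horizontal) against nascent RNA (vertical) at 45 min, each point 1 gene and each value the mean of 2 arrays, with 5 gene groups coloured. Immediate early genes, NF-kappaB regulators and small nucleolar RNAs lie mostly above the line of equal levels, and ribosomal protein and oxidative phosphorylation genes mostly below it.

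MicroRNAs are short RNAs that pair through bases 2 to 8, the seed, with messages they repress. The 300 entries named as microRNA genes include the longer host transcripts Mir17hg, Mir100hg, Mir670hg and Mir99ahg. Of these 300 entries, 91, Mir17hg and Mir100hg among them, were higher in nascent RNA and 2 lower, with a median of 0.35. This stands against 11.2% and 14.2% of all genes and a median of 0.25 for olfactory receptor genes. Most entries were dim: 180 lay under background in both fractions. The 63 called entries that lay above the median level of all genes were 62 higher, Mir17hg among them, and 1 lower (Mir692-1). Of the 63, 56 have mature sequences in RefSeq (GRCm38.p6). Members of several seed families were among them, shown here 5′ to 3′ with the seed in capitals to make the families visible. The first set is from the miR-17-92 cluster, 5 entries within 1 stretch of chromosome 14, plus strand, from chr14:115043684-115043706 for miR-17-5p to chr14:115044358-115044380 for miR-19b-3p.
mmu-miR-17-5p: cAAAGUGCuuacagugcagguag
mmu-miR-18a-5p: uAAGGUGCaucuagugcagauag
mmu-miR-19a-3p: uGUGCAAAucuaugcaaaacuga
mmu-miR-20a-5p: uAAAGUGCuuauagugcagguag
mmu-miR-19b-3p: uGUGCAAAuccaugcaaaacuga
The miR-17 seed AAAGUGC also occurred in 2 entries of chromosome 5, minus strand, at chr5:138165574-138165596 and chr5:138165787-138165807.
mmu-miR-93-5p: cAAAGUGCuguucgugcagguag
mmu-miR-106b-5p: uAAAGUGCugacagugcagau
The let-7 family, known for restraining proliferation, has 10 entries among the genes tested, of which 6 were called higher and Mirlet7a-2, Mirlet7c-1, Mirlet7e and Mirlet7f-2 were not called. The 5 called ones above the median level share the seed GAGGUAG.
mmu-let-7a-5p: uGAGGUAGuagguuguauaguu
mmu-let-7d-5p: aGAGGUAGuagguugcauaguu
mmu-let-7f-5p: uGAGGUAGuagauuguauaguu
mmu-let-7i-5p: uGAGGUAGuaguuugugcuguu
mmu-miR-98-5p: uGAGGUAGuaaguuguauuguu
The pairs miR-15a and miR-16, and miR-221 and miR-222, each share a seed and neighbour each other, on chromosomes 14 and X, and miR-155 is a microRNA known to be induced by Toll-like receptors.
mmu-miR-15a-5p: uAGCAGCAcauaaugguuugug
mmu-miR-16-5p: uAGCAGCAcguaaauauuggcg
mmu-miR-221-3p: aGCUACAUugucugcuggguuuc
mmu-miR-222-3p: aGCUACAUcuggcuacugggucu
mmu-miR-155-5p: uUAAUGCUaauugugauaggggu

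The 5 microRNA entries of the miR-17-92 cluster that were tested were all higher in nascent RNA. Mir19b-1 had 7.83 and 8.79 in nascent and 5.16 and 6.60 in total RNA, and Mir20a 8.30 and 9.43 against 6.01 and 7.33. In both entries each nascent array lay above both total arrays. The differences were 2.43 ± 0.21 for Mir19b-1 (SE; adjusted p = 8.25e-08) and 2.20 ± 0.22 for Mir20a (adjusted p = 4.66e-07), with 1.72 for Mir17, 1.85 for Mir18 and 1.88 for Mir19a. Mir17hg, the host transcript of the cluster, was higher by 1.23 ± 0.20. The cluster entries on chromosome 5 differed by less, 0.76 for Mir93 and 0.69 for Mir106b, and Mir25, which lies beside them in Mcm7, was not called (0.23). Mir106b was not called with quantile scaling or without either experiment at 45 min, and Mir93 not without experiment 2. Neighbouring entries of 1 precursor share RNA and are not independent of each other.

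Mir155 had 11.40 and 12.05 in nascent and 9.69 and 11.00 in total RNA, a difference of 1.38 ± 0.21 (adjusted p = 3.97e-05). The nascent arrays were the higher ones in each experiment. In unstimulated cells all 4 Mir155 values lay under background, so its ratio there is not measured. Mir221 had 12.79 and 13.05 in nascent against 11.16 and 11.67 in total RNA, and was among the brightest microRNA entries. Mir222 was higher by 1.33, Mir15a by 1.63, Mir16-1 by 0.74, Mirlet7d by 1.38 and Mir7-1 by 2.08. Mir15a and Mir16-1 lost their calls without pairing and without experiment 1 at 45 min, Mir16-1 also without experiment 2, and Mirlet7d without experiment 1. Mir677 had 8.53 and 9.31 against 6.24 and 6.99, a difference of 2.31 ± 0.21. With experiment 1 at 45 min left out, 37 entries of the list were called higher, and without experiment 2 there were 38.

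Small nucleolar RNAs guide the chemical modification of ribosomal and spliceosomal RNA and are processed from introns that are removed as the host gene is transcribed. Of 51 entries 38 were higher in nascent RNA at 45 min, 2 were lower and 11 were not called, with a median of 1.31. Snord87 had the largest difference in favour of nascent RNA among all genes tested: 8.40 and 9.25 in nascent against 4.94 and 6.78 in total RNA, 7.81-fold (2.97 ± 0.23, adjusted p = 2.83e-08). Snora41 had 8.12 and 8.58 against 5.49 and 6.36 (2.42 ± 0.22), and Snora31 had 9.96 and 10.31 against 7.65 and 8.07 (2.28 ± 0.24). For these entries the nascent arrays did not overlap the total arrays. Total Snord87 and Snora41 of experiment 1 lay under background, so their differences and the rank of Snord87 rest in part on the floor. Snord47, Snord61 and Snord37 were higher by 2.27, 2.14 and 2.13, and Snord37, with both total arrays under background, by at least 2.57-fold, a call lost without experiment 1 at 45 min. Snord57 went the other way, with 6.87 and 6.20 in nascent and 8.62 and 10.09 in total RNA (-2.82 ± 0.32, adjusted p = 1.88e-06). The list's median was 1.31 in unstimulated cells and 1.29 at 270 min. In all, 21 members were called higher without experiment 1 at 45 min.

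Of the 51 entries, 29 lie inside the span of another tested gene on GRCm38.p6 (strand was not compared), 25 genes in all, and many of these encode ribosomal proteins or translation factors. The entries had a median of 1.67 and the genes containing them a median of -0.43, and 28 of the 29 entries lay above their own gene. In 13 pairs the entry was called higher and the gene lower. Snora62 had 7.64 and 8.16 in nascent and 6.54 and 6.53 in total RNA, whereas Rpsa, the ribosomal protein gene that contains it, had 9.63 and 9.60 against 11.50 and 11.69. Within 1 locus the snoRNA entry was thus higher by 1.37 and the message lower, at -1.97. Snora33 and Rps12 stood at 2.02 and -1.53. Snord42a and Snord42b, both inside Rpl23a, were at 1.13 and 1.45 with their gene at -2.39. Snord57, inside Nop56 (0.59), was the single entry below its gene. Entries of 1 gene are not independent of each other.

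**Figure D2:**
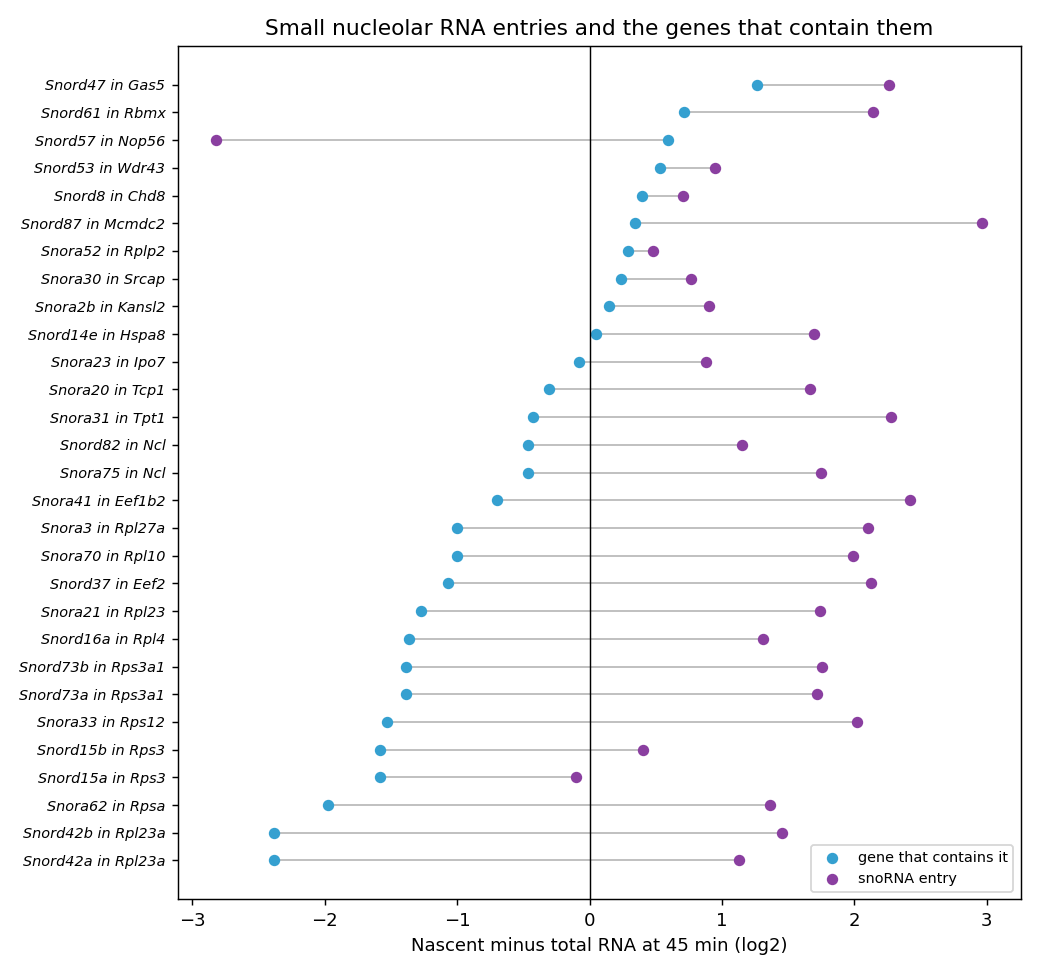
Nascent minus total RNA at 45 min (log2, fit over 2 experiments) of 29 small nucleolar RNA entries and of the gene that contains each, joined by a line. All entries except Snord57 lie to the right of their gene, and the genes at the bottom, such as Rpl23a and Rpsa, lie below zero.

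Immediate early genes are the transcription factors and signalling regulators that need no new protein to be induced. Of 25, 21 were higher in nascent RNA, 0 were lower and Fosl1, Jund, Nr4a2 and Srf were not called (Fosl1 and Nr4a2 under background in both fractions), with a median of 1.25. Maff, a small Maf transcription factor, had 11.16 and 10.26 in nascent and 8.83 and 8.51 in total RNA, 4.11-fold (2.04 ± 0.23, adjusted p = 1.57e-06). Klf10 had 11.56 and 10.99 against 9.29 and 9.22 (2.02 ± 0.23), and Ier2 12.45 and 11.38 against 10.70 and 9.39 (1.87 ± 0.29). All nascent arrays of these 3 genes lay above all total arrays. Myc, the growth regulator, had 9.30 and 9.83 against 7.33 and 8.38 (1.71 ± 0.22). Fos and Egr1, named here for their fame after their values were seen, were higher by 1.52 ± 0.21 and 1.07 ± 0.22. Egr1 lost its call without experiment 1 at 45 min and Ier2 without experiment 2. Medians of the list at the other times were 0.43 in unstimulated cells and 0.46 at 270 min. Without experiment 1 at 45 min 12 members were called, and the median was 1.13.

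Regulators of NF-kappaB, most of them inhibitors that the factor itself induces, were higher in 17 of 18 cases, with a median of 0.99, and Cyld (-0.12) was not called. Nfkbid had 12.11 and 11.41 in nascent against 10.48 and 9.90 in total RNA (1.57 ± 0.23, adjusted p = 2.61e-05). Nfkbie had 11.52 and 11.16 against 9.98 and 9.72 (1.49 ± 0.24). Traf1, an adaptor of the tumour necrosis factor receptors, was higher by 1.40 and Nfkbib by 1.23. These genes were already abundant in the pool, and the 2 nascent arrays still exceeded both total arrays in each. Nfkbia, the best known inhibitor and named for that reason after its values were seen, had 13.56 and 13.43 against 12.71 and 12.41 (0.94 ± 0.22, adjusted p = 0.00315). Without experiment 1 at 45 min 5 members of this list were called higher, Nfkbia, Nfkbib and Traf1 not among them, with a median of 0.93, and without experiment 2 there were 12, again without Nfkbia.

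NF-kappaB binds kappaB sites, and the promoters of these groups were searched on both strands for the letters GGGNN followed directly by TTTCC, in the RefSeq promoter window that lies mostly before each start and is of 1 length for all genes. A match occurred in 9 of 24 promoters of the NF-kappaB regulators (6 of 16 genes), 4 of 14 of the chemokines and 4 of 21 of the cytokines, in 0 of 25 of the immediate early genes, and in 535 of all 32851 promoters (1.63%). Among ribosomal protein genes it occurred in 0 of 58, and among oxidative phosphorylation genes in 1 of 22. Alternative starts of 1 gene overlap and share sites, and the lists were known NF-kappaB targets in part. Promoters of Nfkbia (minus strand, chr12:55492598-55492897) and of Cxcl1 (plus strand, chr5:90890995-90891294), GRCm38.p6, show the kappaB match in capitals within its setting.
Nfkbia: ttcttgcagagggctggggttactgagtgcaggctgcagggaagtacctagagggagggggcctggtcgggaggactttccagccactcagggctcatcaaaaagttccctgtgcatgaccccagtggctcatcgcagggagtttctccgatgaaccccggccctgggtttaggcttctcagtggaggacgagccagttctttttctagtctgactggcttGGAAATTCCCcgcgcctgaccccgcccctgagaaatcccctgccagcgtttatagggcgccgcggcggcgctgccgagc
Cxcl1: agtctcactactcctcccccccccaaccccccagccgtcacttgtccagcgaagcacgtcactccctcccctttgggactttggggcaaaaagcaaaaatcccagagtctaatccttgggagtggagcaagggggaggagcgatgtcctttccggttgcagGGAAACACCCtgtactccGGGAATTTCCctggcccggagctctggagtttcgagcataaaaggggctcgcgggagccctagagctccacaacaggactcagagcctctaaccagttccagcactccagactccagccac
Cxcl1, which encodes a neutrophil attractant, had 12.82 and 12.42 in nascent and 11.40 and 11.38 in total RNA, a difference of 1.22 ± 0.19. A match of letters describes the sequence and does not show binding.

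Cytokines were higher in nascent RNA in 18 of 25 cases, lower in 2 and not called in 5, with a median of 1.04. Il10, the anti-inflammatory interleukin, had 9.48 and 9.55 in nascent and 6.88 and 8.04 in total RNA, 4.15-fold (2.05 ± 0.22, adjusted p = 1.2e-06). Csf2, which encodes granulocyte macrophage colony stimulating factor, had 9.34 and 9.42 against 7.19 and 7.65 (1.96 ± 0.21). Il1a had 11.47 and 11.57 against 9.08 and 10.10 (1.92 ± 0.22), and Tnfsf9, a costimulatory ligand, 12.69 and 12.84 against 10.87 and 11.42 (1.62 ± 0.22). In all 4 genes the nascent values differed little between the experiments and the total values of experiment 2 were the higher ones. Tnf, named for its fame after its values were seen, was near the top of the scale in both fractions, 13.85 and 13.53 against 13.24 and 13.09, and its difference of 0.53 ± 0.16 was not called with centred arrays, without pairing, with a variance prior without trend or without either experiment at 45 min. Both lower members are constitutive in many cells: Tgfb1 had 10.76 and 10.26 against 11.33 and 11.28 (-0.79 ± 0.19), and Il18, under background in nascent RNA, was lower by at least 1.31-fold. Both calls were lost without experiment 2 at 45 min. In the fit without experiment 1 at 45 min, 10 cytokines were called higher.

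Chemokines split: 11 of 22 were higher, 2 lower, and 6 were under background in both fractions, with a median of 0.51. Ccl12 had 9.06 and 9.37 in nascent and 6.65 and 7.60 in total RNA (2.09 ± 0.24, adjusted p = 1.71e-06), and Ccl2, a monocyte attractant, 11.73 and 11.91 against 9.52 and 10.14, 3.98-fold (1.99 ± 0.21). Ccl4 was higher by 1.68 and Cxcl10 by 1.67. Every nascent array exceeded every total array in these 4 genes. Cxcl14 had 7.28 and 7.44 against 8.13 and 8.95 (-1.18 ± 0.22), and Ccl6 12.18 and 11.60 against 12.51 and 12.44 (-0.58 ± 0.16). Both lower calls were lost without experiment 2 at 45 min, and that of Ccl6 also without pairing. Without experiment 1 at 45 min 6 chemokines were called higher, and without experiment 2 there were 7.

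Regulators that end signalling or shorten messages moved the same way in part. Of 13 dual specificity phosphatases, which switch off mitogen-activated protein kinases, 9 were higher and 0 lower (median 0.85). Their median was 0.71 in unstimulated cells and 0.53 at 270 min. None of the 13 was called for a ratio that differed between 45 min and unstimulated cells. Dusp4 had 11.83 and 11.24 against 9.79 and 9.62 (1.83 ± 0.24), and Dusp2 12.58 and 12.21 against 10.89 and 10.50 (1.70 ± 0.25), without overlap of the fractions. Against 14.2% and 22.8% of all genes above background, apoptosis and survival genes were higher in 10 of 19 and lower in 2 (median 0.67). Pmaip1, a BH3-only protein, was at 1.73 and Gadd45a at 1.60. That list fell to 4 called higher without experiment 1 at 45 min. Among factors of messenger RNA decay 8 of 22 were higher and 4 lower (median 0.36, 0.45 in unstimulated cells), led by Zc3h12a, the endonuclease Regnase-1, at 1.41 ± 0.23 and with Zfp36, tristetraprolin, at 1.01. Only 1 decay factor, neither Zc3h12a nor Zfp36, was called without experiment 1 at 45 min. Toll-like receptor pathway genes were higher in 9 of 27 and lower in 5, and 5 were higher with centred arrays. All decay factors and Toll-like receptor pathway genes lay above background, with median levels of 9.57 and 9.40 in total RNA. Of the 3988 brightest genes, with levels from 8.99 to 13.86, 1042 were higher and 1247 lower. Whether the decay and Toll-like receptor lists differ from genes of their level was not tested. Tlr2 had 12.36 and 12.14 against 10.93 and 10.81 (1.38 ± 0.18), and Irak1, a receptor-associated kinase, 7.68 and 7.58 against 8.72 and 8.70 (-1.08 ± 0.21).

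Genes named Zfp, mostly zinc finger transcription factors, were higher in 70 of 317 cases and lower in 12, with a median of 0.29. This stands against 11.2% and 14.2% of all genes and a median of 0.25 for olfactory receptor genes. Under background in both fractions were 77 of the 317. Of the other 240, 65 were higher and 12 lower, against 14.2% and 22.8% of all genes above background. Zfp719 had 11.51 and 11.27 in nascent and 9.37 and 9.47 in total RNA (1.97 ± 0.20), and Zfp263 11.68 and 11.35 against 9.89 and 9.97 (1.58 ± 0.21). Zfp706 was lower, 8.56 and 8.87 against 9.84 and 10.86 (-1.63 ± 0.21). The median of this list was 0.56 in unstimulated cells, and without experiment 1 at 45 min 17 members were called higher. Zinc finger genes have similar sequences and may share signal between probe sets.

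Other genes with large differences belonged to none of these groups. Trim13, a ubiquitin ligase of the endoplasmic reticulum, had 11.36 and 11.60 in nascent and 8.29 and 9.43 in total RNA (2.62 ± 0.25, adjusted p = 2.48e-07). Cks2, a small subunit of cyclin-dependent kinases, had 9.46 and 9.66 against 6.80 and 7.90, 4.60-fold (2.20 ± 0.22). F630028O10Rik, a transcript without a described role here, had 11.46 and 11.75 against 9.14 and 9.77 (2.15 ± 0.19). The nascent arrays of all 3 lay above both total arrays by more than 1 log2 unit.

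**Figure D3:**
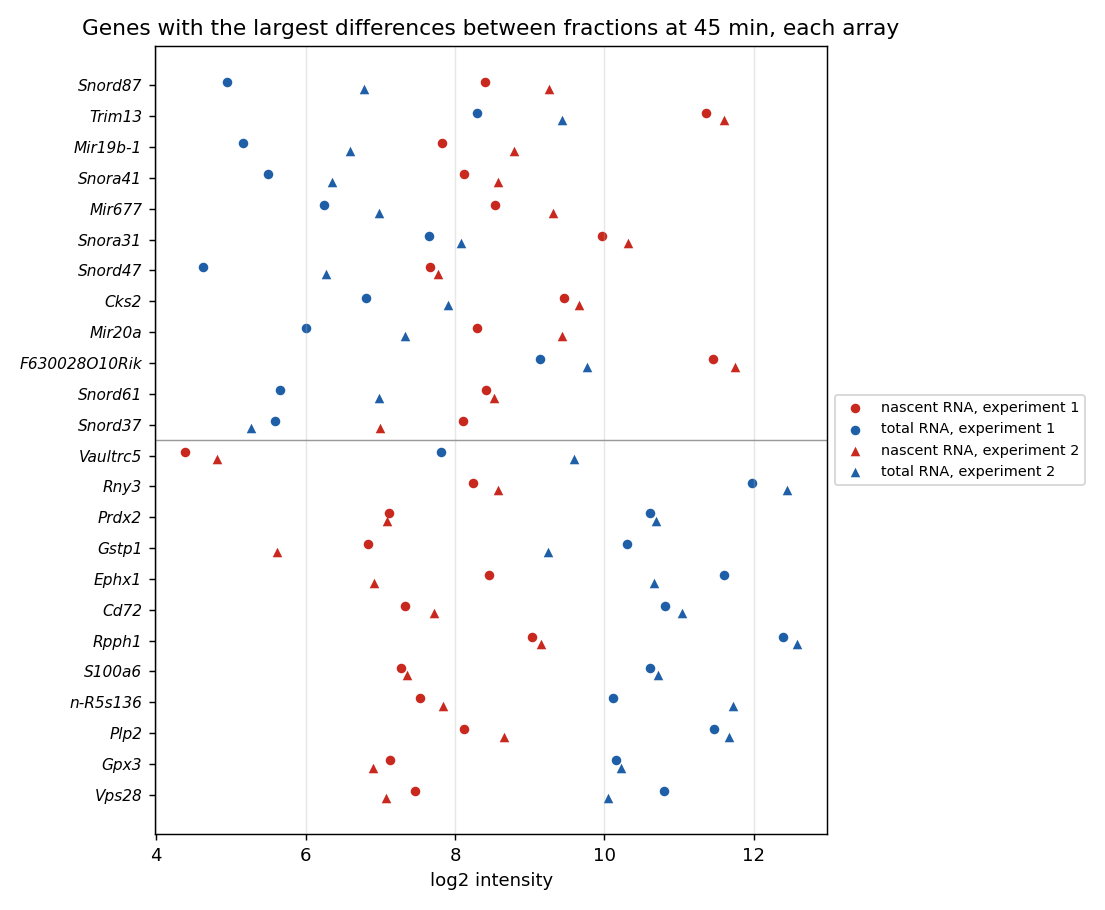
Log2 intensity (horizontal) of each of the 4 arrays for the 12 genes most in favour of nascent RNA (above the line) and the 12 most in favour of total RNA (below it). Red points are nascent and blue points total RNA, circles experiment 1 and triangles experiment 2. In each row every red point lies on 1 side of both blue points, which follows largely from the choice of genes by size of difference.

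At the other end stood some short RNAs made by RNA polymerase III, grouped here after their values were seen. How many such RNAs were tested, and how many of them were not lower, was not counted. Vaultrc5, a vault RNA, had 4.39 and 4.82 in nascent and 7.81 and 9.60 in total RNA, lower by at least 4.24-fold (adjusted p = 6.21e-09). Rny3, a Y RNA bound by the Ro protein, had 8.24 and 8.57 against 11.98 and 12.45 (-3.81 ± 0.21, adjusted p = 2.58e-09). Rpph1, the RNA of ribonuclease P, had 9.03 and 9.15 against 12.39 and 12.57 (-3.39 ± 0.25). Rmrp, its relative of ribonuclease MRP, had 8.81 and 8.74 against 11.45 and 11.97 (-2.93 ± 0.28), and n-R5s136, a 5S ribosomal RNA entry, 7.54 and 7.84 against 10.11 and 11.72 (-3.23 ± 0.25). Rny1, under background in nascent RNA, was lower by at least 1.14-fold. These RNAs had the same direction in unstimulated cells, with Rny3 at -4.54 and Rpph1 at -3.48.

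Among the protein-coding messages with the lowest ratios, Prdx2, a peroxiredoxin, had 7.11 and 7.08 in nascent and 10.61 and 10.70 in total RNA, 11.8-fold lower (-3.56 ± 0.31, adjusted p = 8.57e-08). Gstp1, a glutathione transferase, had 6.83 and 5.62 against 10.30 and 9.24 (-3.55 ± 0.28), Ephx1, an epoxide hydrolase, 8.45 and 6.91 against 11.60 and 10.66 (-3.45 ± 0.23), and Gpx3, a glutathione peroxidase, 7.13 and 6.90 against 10.16 and 10.22 (-3.18 ± 0.21). In all 4 genes both total arrays lay above both nascent arrays by more than 2 log2 units. Nascent Gstp1 of experiment 2 lay under background. Cd72, an inhibitory lectin, had 7.33 and 7.72 against 10.81 and 11.04 (-3.40 ± 0.21). S100a6, a calcium-binding protein, was at -3.35, Plp2 at -3.18 and Vps28, a part of the endosomal sorting machinery, at -3.15. Across the antioxidant list 9 of 21 genes were lower and 6 higher (median -0.33), against 22.8% and 14.2% of all genes above background. Among its higher members, Slc7a11, the cystine transporter, had 10.20 and 10.35 against 8.71 and 9.03 (1.41 ± 0.20), and Sod2, the mitochondrial superoxide dismutase, 12.93 and 12.74 against 11.77 and 11.72 (1.09 ± 0.15). Without experiment 1 at 45 min 2 of them were called higher, and without experiment 2 there were 5 called lower.

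Genes of oxidative phosphorylation were lower in nascent RNA without exception, 30 of 30, with a median of -1.61. The share was 14.2% of all genes and 22.8% of those above background. Ndufb5, a subunit of complex I, had 6.82 and 6.95 in nascent and 9.56 and 9.97 in total RNA, 7.37-fold lower (-2.88 ± 0.21, adjusted p = 1.35e-08). Ndufa4 had 8.09 and 8.39 against 10.69 and 11.27 (-2.74 ± 0.19), and Ndufv1 6.81 and 6.50 against 9.29 and 8.77 (-2.38 ± 0.27). Each total array lay more than 2 log2 units above its nascent partner in these genes. The list's median was -0.82 in unstimulated cells and -0.89 at 270 min. With quantile scaling 27 of 30 were called, and without experiment 1 or 2 at 45 min 21 and 23.

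Cytosolic ribosomal protein genes were lower in 50 of 61 and higher in 2, with a median of -1.42. That median was -1.29 in unstimulated cells and -1.21 at 270 min. Rps9 had 8.65 and 8.78 in nascent and 11.67 and 11.61 in total RNA (-2.93 ± 0.23, adjusted p = 2.46e-08), Rps15 8.60 and 8.16 against 11.42 and 11.18, and Rps18 9.76 and 9.76 against 12.57 and 12.23. The 2 higher members were Rpl30, with 10.14 and 10.57 against 7.93 and 8.82 (1.98 ± 0.21), and Rpl12, with 8.41 and 8.64 against 6.70 and 7.11 (1.62 ± 0.25). Probe sets of this family can share reads of pseudogenes. Mitochondrial ribosomal protein genes were lower in 49 of 77 and higher in 2 (median -0.80, against -0.20 in unstimulated cells and -0.30 at 270 min). Mrps15 was at -2.55 ± 0.21 and Mrpl52 at 0.83 ± 0.21, a call lost without either experiment at 45 min. Without experiment 1 or 2 at 45 min 26 and 23 mitochondrial members were called lower.

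The machinery that makes and degrades proteins followed. Translation factors were lower in 15 of 25 and higher in 4 (median -0.78, against -0.83 in unstimulated cells and -0.56 at 270 min). Eif3f had 8.11 and 8.11 against 10.80 and 10.40 (-2.49 ± 0.22), and Eif5 12.40 and 12.32 against 10.90 and 11.02 (1.40 ± 0.16). Proteasome genes were lower in 19 of 34 and higher in 1 (median -0.80). Of all genes above background 22.8% were lower and 14.2% higher, and of the 3988 brightest genes 1247 and 1042. Whether translation factors and proteasome genes differ from genes of their level was not tested. Psmb8, a subunit of the immunoproteasome, had 6.67 and 6.79 against 9.30 and 9.17 (-2.50 ± 0.28), and Psmb6 was the higher one at 0.95 ± 0.25, a call lost with quantile scaling, without pairing and without either experiment at 45 min. Without an experiment at 45 min 7 translation factors in each case, and 8 or 10 proteasome genes, were called lower.

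Markers of the macrophage itself were lower in 14 of 21 and higher in 2, with a median of -0.75. Of all genes above background 22.8% were lower and 14.2% higher, and of the 3988 brightest genes 1247 and 1042. Whether the macrophage, lysosomal and LXR lists differ from genes of their level was not tested. Tyrobp, the adaptor DAP12, had 9.90 and 10.14 in nascent and 12.25 and 12.41 in total RNA (-2.31 ± 0.19, adjusted p = 3.57e-08), and Trem2, a lipid receptor that signals through it, 8.60 and 8.21 against 11.86 and 10.49 (-2.77 ± 0.33). The higher members were Cebpb, with 12.17 and 11.06 against 10.31 and 9.74 (1.59 ± 0.22), and Cd14, the LPS co-receptor, with 12.90 and 12.34 against 11.74 and 11.31 (1.10 ± 0.23). Cd14 lost its call when either experiment at 45 min was left out. Lysosomal genes were lower in 16 of 27 and higher in 1 (median -0.55): Atp6ap1, an accessory subunit of the proton pump, was at -2.07, Npc2, a cholesterol carrier, at -1.82 and Grn, progranulin, at -1.61. Without experiment 2 at 45 min 7 lysosomal genes were called lower. In the LXR list, genes of cholesterol export, 7 of 11 were lower. Apoe, the lipoprotein, had 8.96 and 8.42 against 12.07 and 11.43 (-3.06 ± 0.19), whereas Abca1, the exporter, had 12.56 and 12.12 against 11.80 and 11.49 (0.69 ± 0.16). The call of Abca1 was lost without pairing and without either experiment at 45 min.

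**Figure D4:**
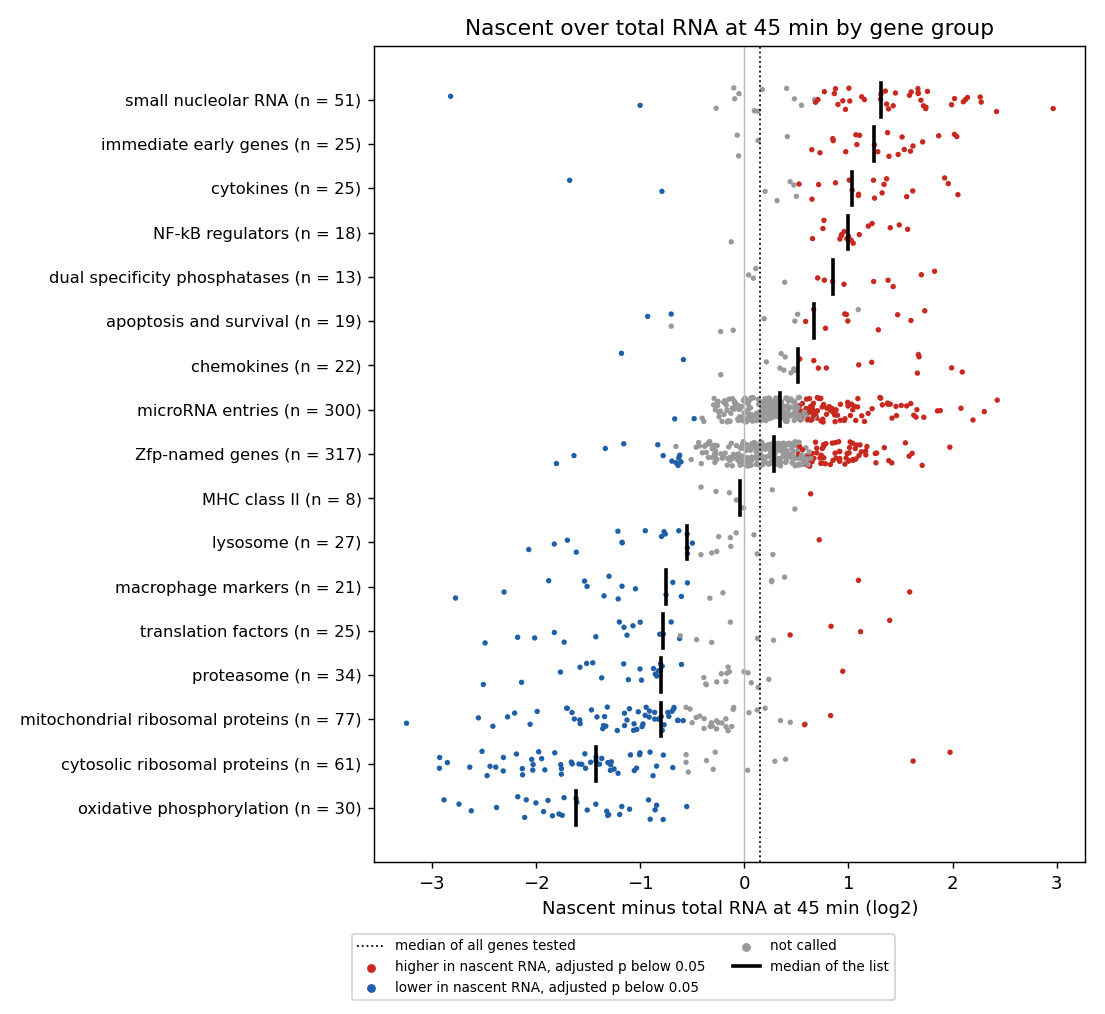
Nascent minus total RNA at 45 min (log2, fit over 2 experiments) for each member of 17 gene groups, red where called higher, blue where called lower and grey where not called, with black bars at the group medians and a dotted line at the median of all 19938 genes. Medians run from 1.31 for small nucleolar RNAs to -1.61 for oxidative phosphorylation.

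The labelled cell type was checked against its markers, and against those of other cells that marrow cultures can hold. All 21 macrophage markers lay above background, with summed intensities of 86319 to 91141 in total RNA at 45 min. Neutrophil, lymphocyte, erythroid or megakaryocyte, dendritic and stromal markers summed to 487 to 2296 on the same arrays. Of these lists 10 of 13 neutrophil and 9 of 12 lymphocyte markers were under background in both fractions. Mast cell and basophil markers summed to 1130 in experiment 1 and 2564 in experiment 2. Mcpt8, a basophil protease, had 7.11 and 9.59 in total and 5.76 and 6.75 in nascent RNA, and Cpa3, a mast cell protease, 6.60 and 8.92 in total and 5.41 and 6.49 in nascent RNA. Those genes were thus higher in experiment 2, and 5 of 14 of the list were lower in nascent RNA, 1 of 14 without pairing, with neither Mcpt8 nor Cpa3 called. Mmp8 was the 1 neutrophil marker called, at -2.46. The part of such cells in the differences above was not tested, and in these bulk arrays fewer cells of a type and less RNA per cell cannot be told apart.

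The ratio of nascent to total RNA at 45 min was then set against that in unstimulated cells. In the limma fit 95 genes (0.476%) had a higher ratio at 45 min and 113 (0.567%) a lower one. This comparison was fragile: 3 genes were called when the arrays were not paired by experiment, and 0 and 6 without experiment 1 or 2 at 45 min, while 2705 and 1348 genes had an unadjusted p below 0.05 in those 2 fits. With quantile scaling 56 were higher and 18 lower, and with centred arrays 44 and 81. Of the 95 genes 14 lay under background in both fractions of unstimulated cells, so their ratio there is not measured. Nascent arrays of unstimulated cells had a wider spread (2.64 and 3.00 log2 units between quartiles) than those at 45 min.

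Of the genes named for a higher ratio at 45 min, Saa3, an acute phase protein, led. It went from 8.63 and 7.56 to 12.08 and 10.96 in nascent RNA, and from 11.05 and 9.96 to 11.56 and 10.64 in total RNA. Its ratio was -2.41 before and 0.42 after, a difference of 2.83 ± 0.24 (adjusted p = 4.24e-06). Srgn, the proteoglycan serglycin of secretory granules, went from -1.73 to 0.74, Gbp2b, an interferon-induced GTPase, from -1.10 to 1.39, and Med21, a subunit of the Mediator complex, from -0.96 to 1.68. Fabp3, a fatty acid carrier, went from -1.56 to 0.86, H2-M2, a class I histocompatibility gene, from -0.78 to 1.28 and Cks2 from 0.09 to 2.20. In experiment 1 of the unstimulated cells nascent Fabp3, H2-M2 and Cks2 and total Cks2 lay under background, so these starting ratios are near the floor. Gbp2b and Srgn kept their calls without pairing, as did Ifnb1, the interferon beta gene, at 1.56 against background levels before. Saa3, Med21, Gbp2b, Fabp3 and Cks2 kept theirs without experiment 2 at 45 min.

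Chemokines were called higher in 7 of 22 cases and lower in 0, but 2 of the 7 lay under background in both fractions of unstimulated cells. Ccl5 went from -2.20 to -0.22: its nascent RNA was 7.51 and 7.77 before and 9.39 and 10.11 after, and its total RNA 9.31 and 10.38 before and 9.51 and 10.44 after. The nascent arrays differed between the times by more than the total arrays did. Cxcl10 went from -0.20 to 1.67, and Ccl2 reached 1.99 from unmeasured levels, as did Csf2 (1.96) and Il10 (2.05) among the 5 cytokines called. Maff went from 0.40 to 2.04, with total RNA under background before. Genes of class II antigen presentation had a lower ratio in unstimulated cells: Cd74, the invariant chain, had 9.78 and 9.57 in nascent against 11.89 and 11.33 in total RNA before, and 12.18 and 11.39 against 12.13 and 11.59 at 45 min, so its ratio went from -1.93 to -0.08. H2-Aa went from -1.63 to -0.14 and H2-Ab1 from -1.91 to -0.27. In each of these 3 genes and in each experiment, nascent RNA rose by more than total RNA between the times. These 3 of 8 class II genes were called, and 0 of them without pairing.

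Of the genes named for a lower ratio at 45 min, Tifab had the largest difference. Tifab, an inhibitor of TRAF6 signalling, had 10.82 and 11.20 in nascent RNA before and 8.93 and 8.19 after, while total RNA was 10.59 and 10.03 before and 10.37 and 9.56 after. Its ratio went from 0.70 to -1.40 (-2.10 ± 0.32, adjusted p = 0.00271). Zfp637 went from 0.29 to -1.80, Timm21, of the mitochondrial import machinery, from 0.30 to -1.76, Aga, a lysosomal hydrolase, from 0.14 to -1.76, and Ranbp6 from 1.54 to -0.25. The mean ratios of Trem2, Echs1, a mitochondrial enoyl-CoA hydratase, and Cops6, of the COP9 signalosome, were below zero at both times. They went from -0.78 to -2.77, from -0.53 to -2.43 and from -1.34 to -3.15. In experiment 2 of the unstimulated cells, however, nascent RNA lay slightly above total RNA for Trem2 (10.50 against 10.40) and Echs1 (9.42 against 9.36). Trem2 kept its call in 7 of 13 alternatives, and lost it with the intensity offset and with dim genes left out, among others. Nascent Zfp637, Timm21 and Cops6 were under background at 45 min, so their ratios there are bounds. Of the 8 genes Tifab, Zfp637 and Aga kept their calls with quantile scaling. Members of the oxidative phosphorylation list were lower in 3 of 30 cases, with 19 without experiment 1 of the unstimulated cells and 0 with quantile scaling.

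Against 270 min of LPS, 358 genes (1.8%) had a higher and 281 (1.41%) a lower ratio at 45 min, and 130 and 54 when the arrays were not paired by experiment. Without experiment 1 or 2 at 45 min 31 and 55 genes were called. Mrc1, the mannose receptor, had 11.50 and 11.14 in nascent and 11.02 and 11.10 in total RNA at 45 min, but 7.03 and 6.95 against 10.29 and 10.16 at 270 min. Its ratio was 0.26 at 45 min and -3.23 at 270 min, a difference of 3.50 ± 0.28 (adjusted p = 1.4e-06). H2-Ea had 0.83 and -2.20, Mt2, a metallothionein, 1.12 and -2.01, Pdpn, podoplanin, 1.00 and -1.83, Slc9a9, an endosomal exchanger, -0.22 and -3.14, and Tceal9 0.28 and -2.63. Nascent Slc9a9 and Tceal9 were under background at 270 min, so their ratios there are bounds. Ccl12 had 2.09 and -1.45, and Il23a, the cytokine subunit, 1.01 and -1.85.

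Lysosomal genes were higher at 45 min than at 270 min in 13 of 27 and lower in 1. Ctsd, cathepsin D, had 13.35 and 13.16 in nascent against 13.79 and 13.71 in total RNA at 45 min, and 11.07 and 11.05 against 13.56 and 13.15 at 270 min. Nascent RNA was lower at the later time and the pool was nearly as high. Cd68 had ratios of -0.55 and -2.27, and Lgmn, legumain, -0.79 and -2.56. Class II genes were higher in 5 of 8, with Cd74 at -0.08 and -2.47, H2-Aa at -0.14 and -2.62 and H2-Ab1 at -0.27 and -2.26. Chemokines were higher in 14 of 22 and cytokines in 10 of 25, with 0 lower, 2 of the cytokines from levels under background at 270 min. Cxcl10 had 1.67 and -0.12, Maff 2.04 and -0.28 and Nfkbib 1.23 and -0.70. At 270 min Cxcl10 was near the top of the scale in both fractions, 13.27 and 13.27 in nascent against 13.49 and 13.30 in total RNA. Without pairing 8 lysosomal genes, 7 chemokines and 5 cytokines were called, and without experiment 1 at 45 min 2, 1 and 2.

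Among the genes named for a lower ratio at 45 min than at 270 min, Cd72 had the largest difference. It had 7.33 and 7.72 in nascent against 10.81 and 11.04 in total RNA at 45 min, and 10.22 and 10.56 against 10.49 and 10.42 at 270 min, ratios of -3.40 and -0.07 (difference -3.33 ± 0.30, adjusted p = 5.67e-06). Ly6e, an interferon-inducible membrane protein, had -3.08 and -0.51, H2-T24, a class I gene, -2.16 and 0.08, Gatm, of creatine synthesis, -2.27 and -0.20, and Eid1 -2.04 and 0.11. Tifab had -1.40 and 0.73 and Echs1 -2.43 and -0.41. Nascent Eid1 was under background at 45 min, so its ratio there is a bound, and Ttc30b was under background in both fractions at 270 min, so its ratio there is not measured. Cd72 and Ly6e kept their calls without either experiment at 45 min.

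**Figure D5:**
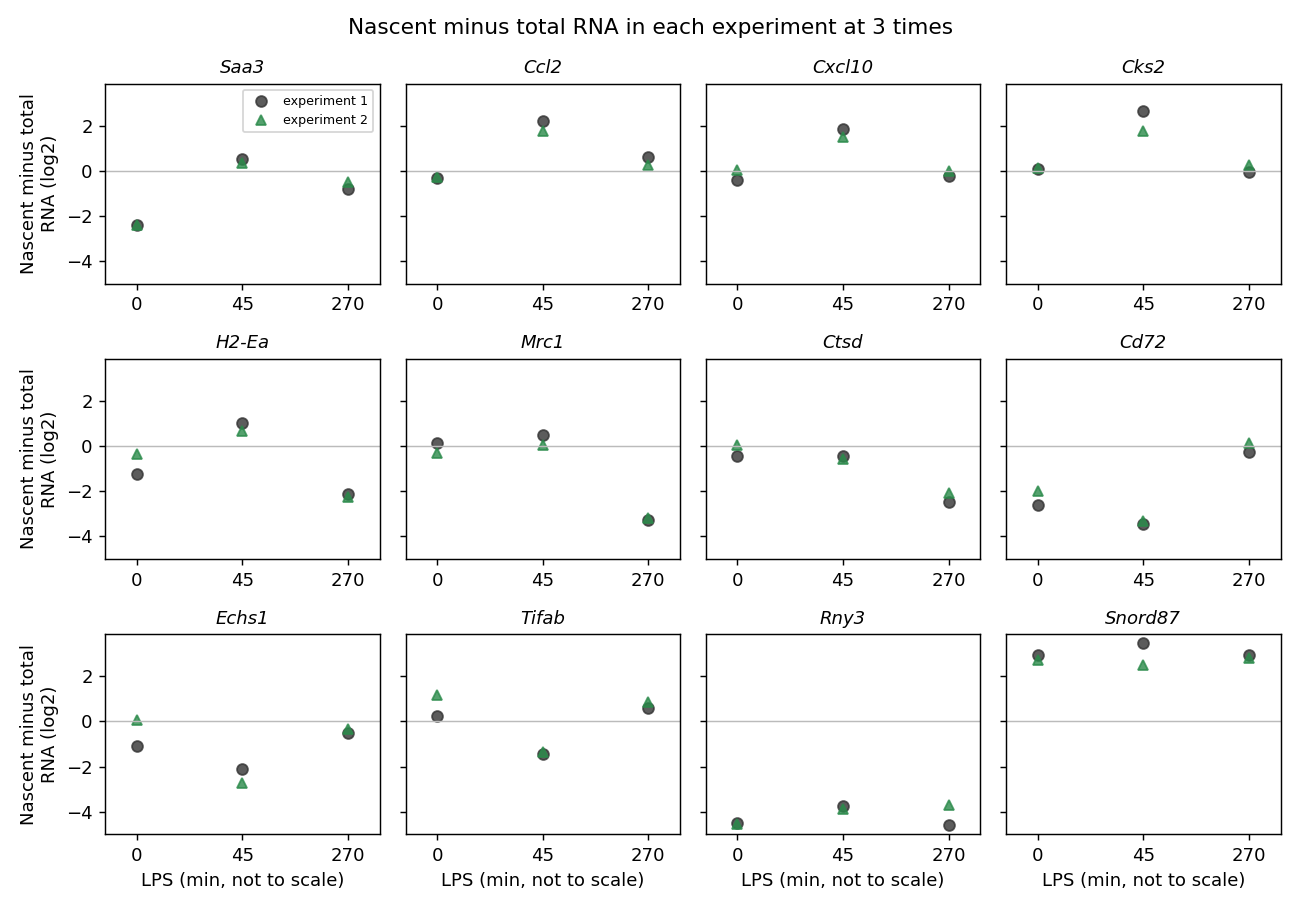
Nascent minus total RNA (log2) of 12 genes at 0, 45 and 270 min of LPS, circles for experiment 1 and triangles for experiment 2, with a grey line at equal levels. Saa3 moves from about -2.41 to 0.42 at 45 min, Mrc1 and Ctsd are lower at 270 min than at 45 min, Cd72 is lowest at 45 min, and Rny3 and Snord87 stay on their own side of the line at all 3 times.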

How the data were processed

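RNA of 12 Affymetrix Mouse Gene ST 1.0 arrays was used, 6 groups of 2. The authors deposited 1 intensity per probe set on a linear scale, summarised by RMA in Expression Console (Affymetrix) per the submitters' processing notes, with versions not given in the sources used here. Of 35557 probe sets 21789 had 1 gene symbol, 1621 several and 12147 none in the platform annotation, and per symbol the probe set with the highest mean was kept. Log2 was taken, and nascent minus total RNA was formed within each experiment, since per the labels' protocols 1 RNA preparation yielded both fractions. Deviations of nascent and total arrays of an experiment correlated at -0.0549, 0.1750 and 0.4188 (0, 45 and 270 min). A limma fit of the 6 differences estimated 1 mean for each time (limma 3.58.1, R 4.3.3, residual degrees of freedom 3, trended prior), after a test on simulated data. The fit had no term for the experiment number across times, so the comparisons between times treat the 6 differences as independent. The members and lists were chosen with earlier results of these data known. Genes named were the 12 largest called differences each way at 45 min, the 8 each way for either difference between times and up to 4 each way per list, above the median level of 6.64 for the first 2, plus called microRNAs, with exceptions said in place. Nothing states whether mice were separate. The p-values rest on a spread between experiments pooled over the 3 times and drawn largely from the prior over all genes. The prior had a median of 16.5 degrees of freedom, against 3 from the gene itself. Tables and figures used Python 3.11.15, pandas 2.3.3 and matplotlib 3.10.9. Histone and mitochondrially encoded genes had no probe set with a single symbol under the patterns used. Promoter and microRNA sequences are from RefSeq, GRCm38.p6. The number of arrays limits the precision. Alternatives were quantile scaling, centring, an offset, leaving out dim genes, the mean over probe sets, no pairing, no trend, the 45 min arrays alone and leaving out each experiment.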

Additional observations from a re-analysis of the deposited data

Results flagged for a closer look

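Genes reported for a change of the nascent to total ratio between times are collected here because the difference of the ratio was itself tested (limma, adjusted over 19938 genes). Values are log2 differences of the ratio. For 45 min minus unstimulated cells they were 2.83 for Saa3, 2.63 for Med21, 2.50 for Gbp2b, 2.47 for Srgn, 2.42 for Fabp3, 2.30 for Ccl2, 2.11 for Cks2 and 2.06 for H2-M2. Listed next are genes of the lists, with 1.98 for Ccl5, 1.87 for Cxcl10, 1.82 for Csf2, 1.68 for Il10, 1.63 for Ifnb1, 1.86 for Cd74, 1.49 for H2-Aa, 1.64 for H2-Ab1, 1.64 for Maff and 1.27 for Mir155. Ccl2, Csf2, Il10, Ifnb1 and Mir155 lay under background in both fractions of unstimulated cells. In experiment 1 of those cells nascent Fabp3, H2-M2, Cks2 and Cxcl10 and total Cks2 did too. Lower at 45 min were Tifab at -2.10, Zfp637 at -2.09, Timm21 at -2.06, Trem2 at -1.99, Echs1 at -1.91, Aga at -1.90, Cops6 at -1.81 and Ranbp6 at -1.79. Nascent Zfp637, Timm21 and Cops6 at 45 min, and total Maff in unstimulated cells, were under background, so these 4 differences rest on a bound.

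For 45 min minus 270 min the differences were 3.55 for Ccl12, 3.50 for Mrc1, 3.13 for Mt2, 3.03 for H2-Ea, 2.92 for Slc9a9, 2.91 for Tceal9, 2.86 for Il23a and 2.83 for Pdpn. Lysosomal and class II genes gave 1.79 for Ctsd, 1.72 for Cd68, 1.77 for Lgmn, 2.39 for Cd74, 2.48 for H2-Aa and 1.99 for H2-Ab1. Maff gave 2.32, Nfkbib 1.93 and Cxcl10 1.80. Lower at 45 min were Cd72 at -3.33, Ly6e at -2.58, H2-T24 at -2.24, Ttc30b at -2.20, Eid1 at -2.15, Tifab at -2.13, Gatm at -2.07 and Echs1 at -2.02. Ttc30b lay under background in both fractions at 270 min, so its ratio there is not measured and no change can be read from its difference. Nascent Slc9a9 and Tceal9 at 270 min and nascent Eid1 at 45 min were under background, so those differences rest on a bound. Groups of 2 arrays do not allow a test for a single array that stands apart.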

How the results depend on the processing

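Of 137 named genes called at 45 min, all but Tnf kept direction and call with centred arrays, 134 with quantile scaling (Mir106b, Psmb6 and Srgn were lost), 126 without the replicate block and 112 and 115 without experiment 1 or 2, and none reversed under these alternatives. At 45 min, 2226 genes were higher and 2834 lower; quantile scaling gave 2391 and 2354 and centring 1544 and 3010. Leaving out 1 experiment at any time gave 741 to 2835 higher and 1345 to 3328 lower. For 45 min minus unstimulated cells, 95 genes were higher and 113 lower; quantile scaling gave 56 and 18, centring 44 and 81, an added 32 units of intensity 81 and 55, and no replicate block 3 and 0 (limma; 1876 genes at an unadjusted p below 0.05). The fit without the block treats nascent and total arrays as unpaired. Leaving out 1 experiment gave 0 to 371 higher and 0 to 1351 lower. For 45 min minus 270 min, 358 were higher and 281 lower; quantile scaling gave 278 and 150, and no replicate block 130 and 54. Leaving out 1 experiment gave 24 to 757 higher and 3 to 892 lower. A time left with 1 difference is assumed to vary like the others; the causes of these shifts were not tested. Signal over background limits 7654 genes under background in both fractions at 45 min.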
